A study of Mus musculus with 12 samples.

Results

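The comparison described here sets liver RNA of OO mice, whose dams and which themselves ate an obesogenic diet, against liver RNA of CO mice, which ate the same obesogenic diet but were born to and suckled by dams on control chow. Its members are the libraries whose column names begin with OO (3) or CO (2), 5 of the 11 libraries in the table, and all genes. Of 12086 genes, 6 were listed at exactly 0 in every library of OO or CO and were set aside, which left 12080 genes tested. Both groups were male, wild type C57BL/6 offspring weaned at postnatal day 21 onto the obesogenic diet and killed at postnatal day 84 (12 weeks) in a fasted state, so the diet of the dam before weaning is the only difference that the labels name. The obesogenic diet held 10% simple carbohydrate and 20% lipid and came with sweetened condensed milk (55% simple carbohydrate, 8% lipid, 8% protein), and the control chow held 7% simple carbohydrate and 3% lipid. The dams, 35 in all, kept their diets through mating, pregnancy and lactation, and litters were set to 6 pups on day 3. The other groups of the series, used here for the shared estimate of the spread and for the interaction, were OC (obesogenic dam, control-fed offspring, 3 libraries) and CC (control dam, control-fed offspring, 3 libraries). The labels list 3 animals in each group. No source used here states whether the libraries of a group came from separate litters, so p-values measure the spread between these libraries.

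A dam's diet reaches the offspring through the placenta and then through milk, and the offspring liver is a tissue in which such early exposure has often been studied, because it handles dietary fat and sugar. After weaning the liver stores glucose as glycogen, turns surplus carbohydrate into fat under the transcription factor SREBP1, and exports fat as lipoproteins. The hepatocyte also makes most plasma proteins, among them the acute phase proteins, whose genes are switched on by interleukin 6 through STAT3 and by C/EBP factors during inflammation.

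Values are scaled read counts, close to CPM, as the authors deposited them. Whole reads could be recovered from them, and the depth was 3976158 to 27837609 reads in OO libraries and 4575514 and 5956792 reads in CO libraries. Some libraries stood apart. CO.1 held high acute phase transcripts and a summed value of 4558 over 18 exocrine pancreas markers, against 113.3 in CO.0 and 17.5 to 154.3 in the OO libraries. In OO.1 a single gene, the mitochondrial leucyl-tRNA synthetase Lars2, took 12.92% of all values. OO.0 was the deepest library and had the highest sum of 14 skeletal muscle markers, 607.6, against 23.8 in OO.1, 34.6 in OO.2, 21.5 in CO.0 and 204.3 in CO.1. Hepatocyte markers were abundant in every library, with sums over 12 genes of 66687 to 73237 in OO and 77023 to 81405 in CO. In bulk tissue, fewer cells of a type and less RNA per cell cannot be told apart.

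No gene separated OO from CO at an adjusted p under 0.05 by limma's moderated test with Benjamini-Hochberg adjustment over all genes tested (0 of 12080, 0%). At an unadjusted p under 0.05 there were 711 genes (5.89%), of which 397 (3.29%) were higher and 314 (2.60%) lower in OO. Without any overlap between the 3 OO and the 2 CO libraries, 1275 genes (10.6%) were higher and 1142 (9.45%) lower in OO. On the same recovered reads, edgeR's quasi-likelihood test called 0 genes (648 unadjusted), limma's voom called 0 (594 unadjusted), and DESeq2 called 10, of which 2 were higher and 8 lower in OO. The median difference over all genes was 0.01 on the log2 scale. The genes named next come from the 12 in each direction with the smallest unadjusted p among those whose higher group averaged 5 or more and whose libraries did not overlap. They all missed the threshold, and their differences are given as values.

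**Figure D1:**
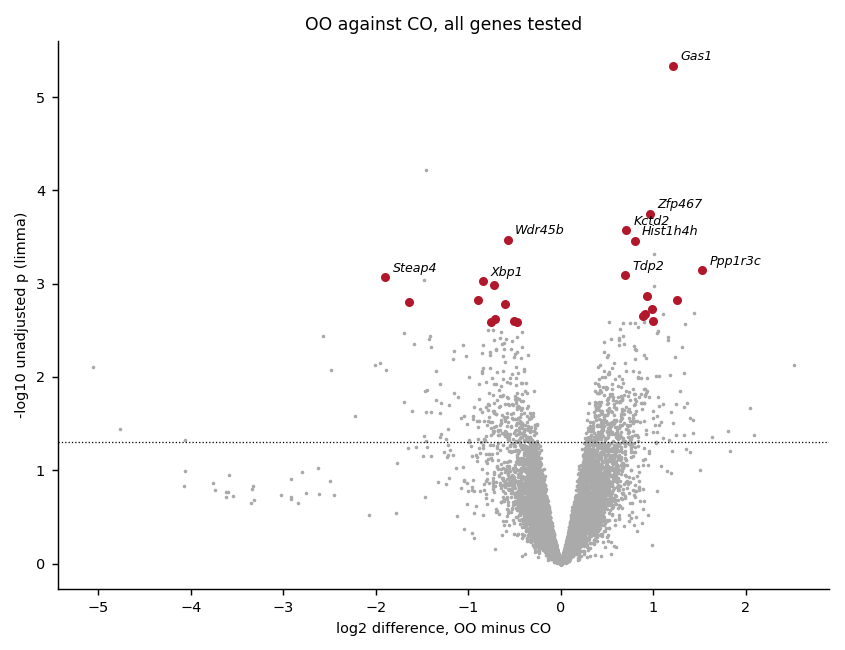
Difference and p-value of the 12080 genes tested. The x axis is the log2 difference of log2(value + 0.5), OO minus CO, and the y axis is -log10 of limma's unadjusted p. Each grey point is a gene, red points are 23 of the named genes (the uppermost are labelled), and the dotted line marks the unadjusted threshold of 0.05. Gas1 lies highest, and the points far to the left near the bottom have large differences with large spread.

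Gas1 (ENSMUSG00000052957) encodes a growth arrest protein of the cell surface that acts as a co-receptor for hedgehog ligands, and it had the smallest p of all genes. Its values were 7.75, 8.85 and 9.80 in OO livers, against 3.50 and 3.49 in CO livers. All OO libraries were more than double either CO library, and the groups did not overlap. The log2 difference was 1.21 (SE 0.15, 2.32-fold) and limma's adjusted p was 0.0557. The CO values rest on 21 and 16 reads, so each has an exact 95% Poisson interval of 2.17 to 5.35 and 2 to 5.67, which covers counting error only. The adjusted p was 0.0408 with a pseudocount of 0.1 and 0.0495 by DESeq2, and over all alternatives it ran between 0.0112 and 0.983. The lowest of these, by limma, came with the genes listed at 0 kept in the test, 4 of which were called beside Gas1. Gas1 lay at 11.25 to 12.0 in OC livers and 12.4 to 12.6 in CC livers, above every OO library.

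Among genes with lower values in OO, Cldn14, a tight junction protein, stood at 5.78, 4.98 and 5.23 in OO livers and at 10.7 and 10.0 in CO livers. OC and CC livers held 2.76 to 4.71, below every OO library, so OO lay between CO and the control-fed groups. The log2 difference was -0.90 (SE 0.22), with an adjusted p of 0.790 by limma.

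Several genes with higher values in OO act in nutrient handling. Ppp1r3c, the subunit that brings protein phosphatase 1 to glycogen, had values of 56.3, 65.5 and 43.1 in OO livers, against 12.8 and 26.4 in CO livers (log2 difference 1.53, SE 0.34, adjusted p = 0.790 by limma and 0.0318 by DESeq2). Srebf1, the SREBP1 gene, stood at 46.3, 52.0 and 95.3 in OO livers and at 20.7 and 31.2 in CO livers, a log2 difference of 1.25 (SE 0.30). Both CO libraries lay below all other libraries for Ppp1r3c and Srebf1. Sesn2, a stress-inducible inhibitor of mTORC1, had 10.6, 11.9 and 9.48 in OO livers against 4.50 and 6.55 in CO livers. The organic anion transporter Slc17a4 stood at 25.9, 29.9 and 44.3 in OO livers and at 19.3 and 13.5 in CO livers, and Bhlhe40, a transcriptional repressor of the circadian clock, at 42.6, 54.2 and 68.6 in OO livers and 20.0 and 36.2 in CO livers. These last 2 genes were the only ones of the 24 for which the CO libraries did not lie beyond all 9 others. Fgfrl1, an FGF receptor without a kinase domain, was higher in OO by 0.89 on the log2 scale.

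Of the other genes with higher values in OO, some act in the nucleus and some in protein turnover. The zinc finger gene Zfp467 had values of 11.8, 14.7 and 14.7 in OO livers, against 7.17 and 6.33 in CO livers. The histone H4 gene Hist1h4h stood at 17.3, 19.9 and 18.1 in OO livers against 11.2 and 9.61 in CO livers, and the cullin 3 adaptor Kctd2 at 20.2, 23.5 and 20.8 in OO livers against 13.7 and 12.2 in CO livers. Tdp2, an enzyme that frees topoisomerase from DNA ends, was higher in OO by 0.70 and Manbal by 0.93 on the log2 scale, with adjusted p values of 0.790 by limma for each.

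Genes with lower values in OO included Steap4, Xbp1, Tifa and Slc39a14. Steap4, a metalloreductase of the cell membrane that also responds to interleukin 6, stood at 145, 164 and 209.8 in OO livers, against 363 and 1116 in CO livers. The log2 difference was -1.90 (SE 0.43, adjusted p = 0.790 by limma and 0.00127 by DESeq2), and leaving out CO.1 gave -1.09, leaving out CO.0 -2.70. Xbp1, a transcription factor of the unfolded protein response, had 245.7, 255.8 and 189.7 in OO livers, against 401 and 419 in CO livers (log2 difference -0.84, SE 0.19, adjusted p = 0.790). Unlike Steap4, its value scarcely moved without CO.1 (-0.81) or without CO.0 (-0.87). Tifa, an adaptor that passes signals to NF-kB, stood at 18.8, 10.5 and 20.1 in OO livers against 32.0 and 79.0 in CO livers. Slc39a14, the zinc and iron importer ZIP14, had 250.2, 262 and 217 in OO livers against 324 and 517 in CO livers.

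Further genes with lower values in OO included Wdr45b, Hspb8 and Lrig1. Wdr45b, a member of the WIPI family of autophagy proteins, had 36.6, 36.2 and 39.1 in OO livers and 51.5 and 60.03 in CO livers, and the small heat shock protein gene Hspb8 had 189, 168 and 162 in OO livers and 273.5 and 293 in CO livers. Lrig1, a negative regulator of the EGF receptor, was lower in OO by a log2 difference of -0.50. Egfr itself is not among the 24 named genes and comes from the growth hormone and IGF axis list. It stood at 927, 575 and 362 in OO livers against 1130 and 2110 in CO livers (log2 difference -1.42, adjusted p = 0.790 by limma). The phosphatase gene Ptp4a1 differed by -0.72, the galactosyltransferase gene B4galt1 by -0.60 and R3hcc1l by -0.48 on the log2 scale. For 22 of the 24 named genes both CO libraries lay beyond all 9 other libraries of the series, OC and CC included. The same held for 372 of the 711 genes at an unadjusted p under 0.05 (52.3%) and for 845 of all 12080 genes (7.00%). The choice of the named genes had already placed the CO libraries beyond the OO libraries. The CO libraries are also shared by both readings, so the count is a description. For some of these genes the OO libraries too lay beyond all OC and CC libraries, on the same side as CO. Steap4, Slc39a14, Wdr45b and Ppp1r3c were among them. For others, such as Xbp1 and Ptp4a1, OO overlapped with the control-fed groups.

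**Figure D2:**
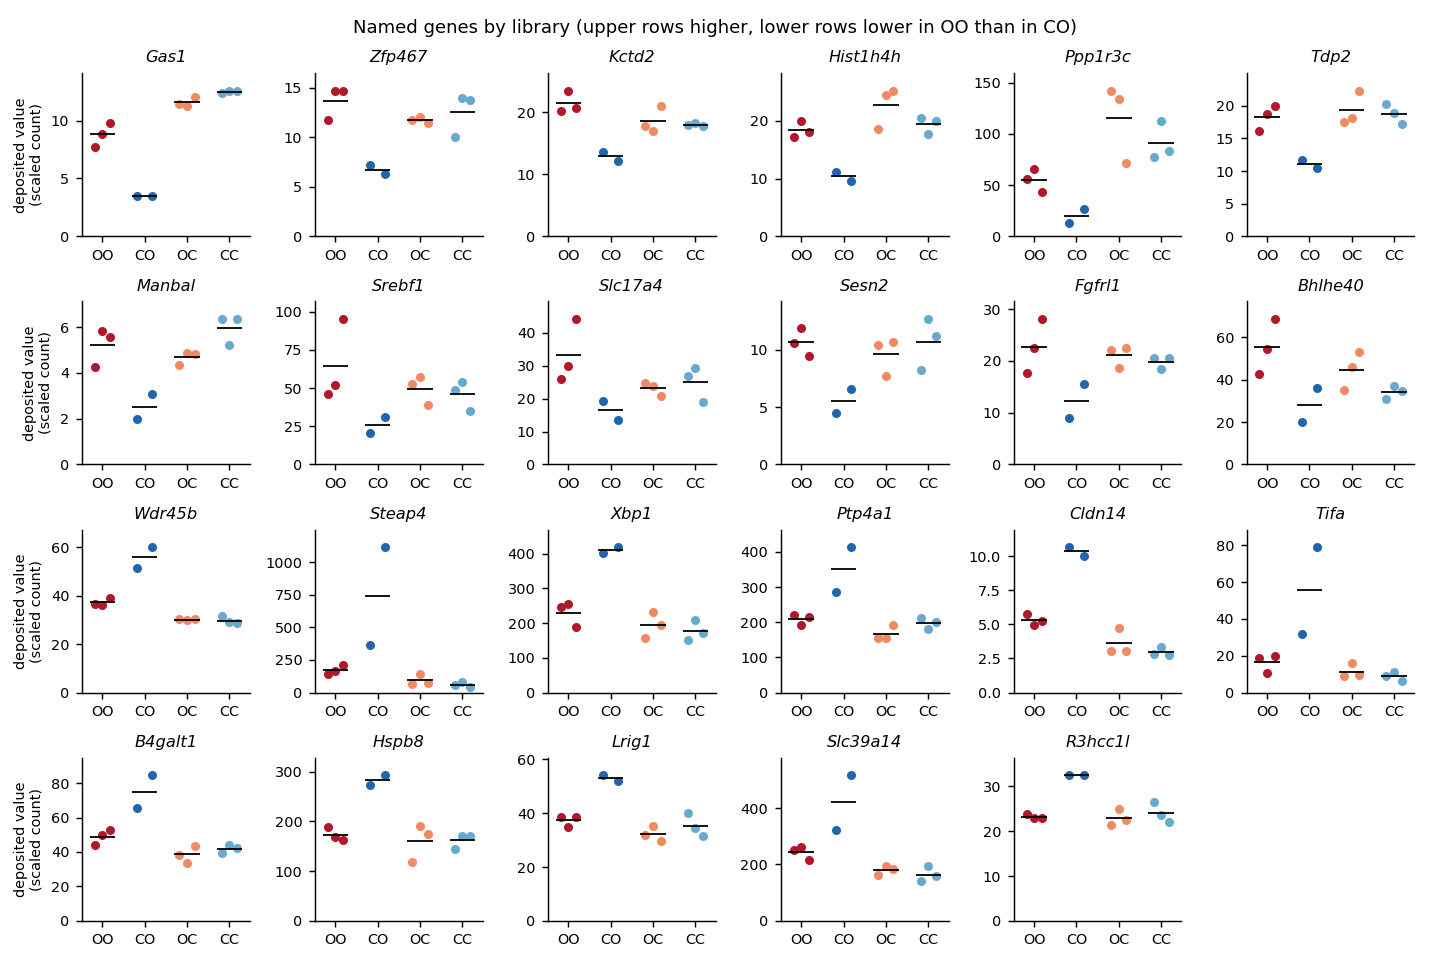
Values of 23 named genes in every library. The y axes give the deposited value (scaled count, from 0, with its own range in each panel), the x axes the groups OO, CO, OC and CC, points are libraries and bars are group means. Gas1 at 3.50 and 3.49 and Steap4 at 363 and 1116 show the CO libraries apart from the rest in either direction. For both genes the OO libraries lie between CO and the control-fed groups.

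Acute phase and interleukin 6 genes had the lowest median of the pathway lists. Of 36 tested members, 35 had a log2 difference below 0, and the median log2 difference was -0.92, beside 0.01 for all genes. No member passed the adjusted threshold by limma or edgeR, and Steap4 alone did by DESeq2. By limma, 10 were lower and 0 higher at an unadjusted p under 0.05 (beside 2.60% of all genes lower), and 17 were lower without overlap (beside 9.45% of all genes). The size depended on CO.1. The median was -0.24 against CO.0 alone and -1.39 against CO.1 alone, and the level of the list, taken as the median over members of log2(value + 0.5) minus each member's mean over libraries, was -0.20, -0.01 and -0.15 in OO libraries, against 0.22 in CO.0 and 1.36 in CO.1. A control-fed library, OC.1, stood at 0.63, and the other OC and CC libraries at -0.54 to -0.34.

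Among acute phase members, the serum amyloid gene Saa2 covered the widest range, with 11.8, 208.5 and 58.3 in OO livers, against 281.5 and 7410 in CO livers. Saa1, its neighbour with a near-identical sequence, stood at 22.5, 297.5 and 86.6 in OO livers against 389 and 5045 in CO livers. The division of reads between these copies is uncertain. The 3 fibrinogen chain genes Fga, Fgb and Fgg, which make the clotting protein, had log2 differences of -0.90, -0.95 and -0.94. Fgb had 5033, 4696 and 4023 in OO livers, against 6143 and 12710 in CO livers, with an SE of 0.38 and no overlap (adjusted p = 0.837 by limma). Fga stood at 5363, 5547 and 4100 in OO livers against 6666 and 12940 in CO livers. C-reactive protein, Crp, had 244.5, 252 and 216 in OO livers against 294 and 402 in CO livers. Of the receptors, the shared signalling chain Il6st stood at 215.5, 259 and 213 in OO livers and 273 and 341 in CO livers, and the interleukin 1 receptor Il1r1 at 90.5, 95.4 and 38.7 in OO livers and 115 and 257 in CO livers. Every OO library was below both CO libraries for all of these members, with CO.0 the nearer one. CO.1 also held the pancreas transcripts, and their part in the acute phase values was not tested.

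Promoters of 4 members are shown because their genes were lower in every OO library than in both CO libraries and because they hold the binding motifs of the factors named in the background. The sequences are RefSeq promoters of build GRCm38.p6, from 250 bases before to 50 after the gene start, 5′ to 3′ on the gene's strand, and capitals mark matches to the STAT motif TTCNNNGAA or the C/EBP motif TTGCNNAA, searched on both strands. Steap4 lies on the plus strand at chr5:7960222-7960521, Fga on the plus strand at chr3:83025903-83026202, Fgb on the minus strand at chr3:83049814-83050113 and Saa2 on the plus strand at chr7:46751583-46751882.
Steap4: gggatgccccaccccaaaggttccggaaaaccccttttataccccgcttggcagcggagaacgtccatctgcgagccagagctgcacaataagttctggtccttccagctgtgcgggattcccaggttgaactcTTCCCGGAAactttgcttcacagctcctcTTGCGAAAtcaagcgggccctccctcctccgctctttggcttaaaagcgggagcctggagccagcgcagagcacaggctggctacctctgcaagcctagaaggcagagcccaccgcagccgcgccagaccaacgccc
Fga: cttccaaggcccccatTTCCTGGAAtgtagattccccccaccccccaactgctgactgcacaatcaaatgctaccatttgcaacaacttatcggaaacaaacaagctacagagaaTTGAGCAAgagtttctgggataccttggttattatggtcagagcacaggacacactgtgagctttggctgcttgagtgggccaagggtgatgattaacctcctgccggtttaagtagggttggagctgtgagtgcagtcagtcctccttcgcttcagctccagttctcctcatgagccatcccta
Fgb: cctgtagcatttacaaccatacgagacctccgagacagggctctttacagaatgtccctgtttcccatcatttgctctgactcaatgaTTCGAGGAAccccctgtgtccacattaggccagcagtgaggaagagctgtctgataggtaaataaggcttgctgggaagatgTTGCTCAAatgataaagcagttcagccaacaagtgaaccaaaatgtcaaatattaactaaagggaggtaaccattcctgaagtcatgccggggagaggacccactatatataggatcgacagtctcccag
Saa2: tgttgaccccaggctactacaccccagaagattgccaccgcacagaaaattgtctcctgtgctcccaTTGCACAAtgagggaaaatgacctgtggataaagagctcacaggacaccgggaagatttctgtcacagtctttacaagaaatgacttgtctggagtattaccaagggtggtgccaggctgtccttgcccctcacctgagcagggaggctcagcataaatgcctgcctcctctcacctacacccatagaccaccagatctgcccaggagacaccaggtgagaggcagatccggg
In Steap4 the STAT match begins 116 bases before the gene start and the C/EBP match 87 bases before it. In Fgb they begin at 162 and 80 bases, in Fga at 234 and 135 bases, and Saa2 has a C/EBP match alone, 183 bases before the start. Other members lower in every OO library differed in this. The promoters of the third fibrinogen gene Fgg, of Crp and of Il6st held neither motif. Those of Saa1 and Il1r1 held the C/EBP motif alone. Of the 36 acute phase genes, 29 had a promoter in the RefSeq table, of which 7 (24.1%) held the STAT motif and 13 (44.8%) the C/EBP motif. Among the 9181 genes tested with a promoter in the table, these shares were 6.97% and 8.51%, and among all 32851 promoters of that length 8.30% and 10.8%. A match is a description of letters in this window and not a site shown to be bound.

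**Figure D3:**
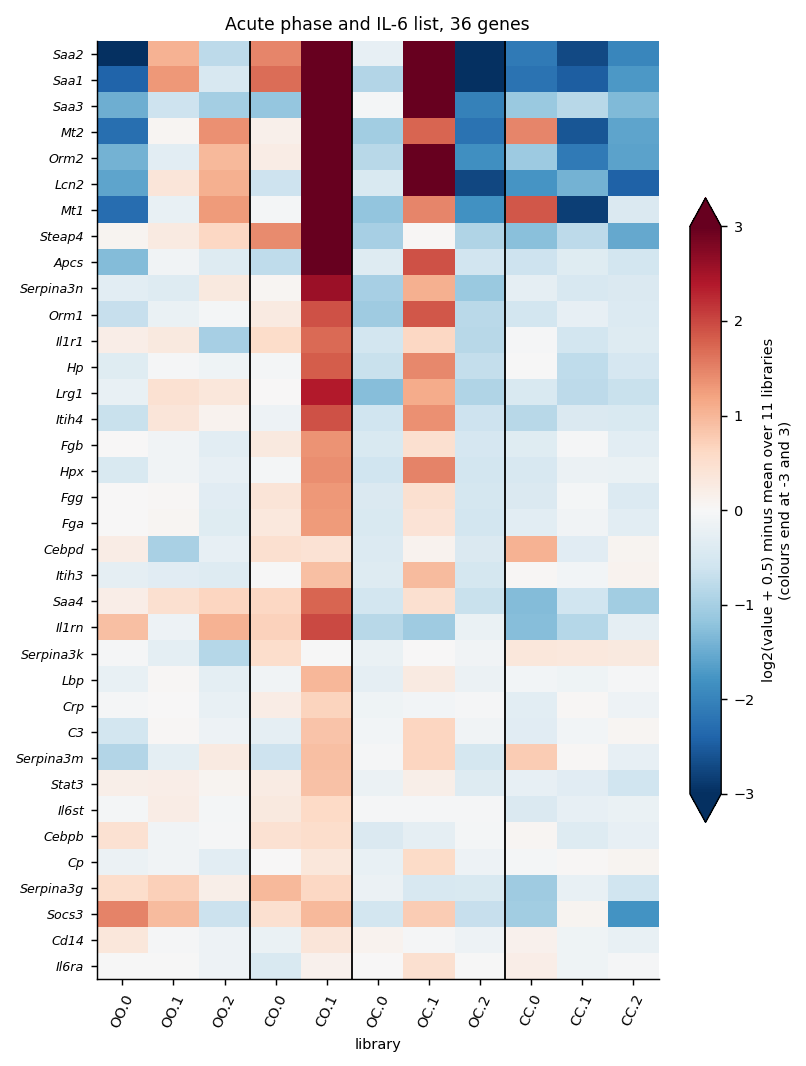
Acute phase and interleukin 6 genes by library. Rows are the 36 tested members, from the lowest to the highest log2 difference of OO minus CO, columns are libraries, and colours give log2(value + 0.5) minus the member's mean over 11 libraries (colours end at -3 and 3). CO.1, with a list level of 1.36, is the reddest column, OC.1 at 0.63 is next, and the OO columns at -0.20 to -0.01 lie below CO.0 at 0.22.

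Complement and neutrophil genes also had medians below that of all genes. In the complement and coagulation list the median was -0.18, with 12 of 43 members lower in OO without overlap and 0 higher (beside 9.45% and 10.6% of all genes), and 2 lower at an unadjusted p under 0.05 (beside 2.60%). These were C6, of the membrane attack complex, at 313, 251 and 128 in OO livers against 410.2 and 323 in CO livers, and C4a, a copy of C4, at 25.4, 17.1 and 55.7 in OO livers against 58.7 and 89.1 in CO livers. Neutrophil and chemokine genes had 5 tested members and a median of -0.64, -0.28 against CO.0 and -1.96 against CO.1. Within that list the calgranulin S100a9 stood at 2.20, 2.77 and 0.98 in OO livers against 4.17 and 15.9 in CO livers, and S100a8 at 1.67, 2.21 and 1.96 in OO livers against 2.83 and 8.95 in CO livers.

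Of 25 antigen presentation genes, 17 were above 0, with a median of 0.18. At an unadjusted p under 0.05, 3 were higher and 1 lower (beside 3.29% and 2.60% of all genes), and the 3 higher ones belong to class II presentation. H2-Eb1 had 20.1, 31.8 and 29.4 in OO livers against 17.7 and 10.7 in CO livers, H2-Aa had 29.8, 50.9 and 32.4 in OO livers against 20.8 and 19.7 in CO livers, and Cd74, the invariant chain that escorts class II molecules, had 64.8, 85.4 and 66.7 in OO livers against 48.3 and 41.3 in CO livers. All 3 were separate from CO in every library (unadjusted p of 0.0141, 0.0162 and 0.0251, adjusted p = 0.837 by limma), and they overlapped with OC and CC. The lower member was Nlrc5, the activator of class I genes. Macrophage markers had close sums, 879 to 909 in OO and 836 to 840 in CO over 20 genes, and 16 of these were above 0, with a median of 0.16. Without overlap, 5 were higher and 1 lower in OO (beside 10.6% and 9.45% of all genes). The lower one was Cd163, a scavenger receptor for haemoglobin, which stood at 13.7, 19.1 and 13.7 in OO livers against 23.5 and 28.4 in CO livers (unadjusted p = 0.0156, adjusted p = 0.837 by limma). Trem2, a lipid-sensing receptor of macrophages, had 1.57, 1.11 and 3.60 in OO livers against 0.667 and 0.873 in CO livers (unadjusted p = 0.0406, adjusted p = 0.837 by limma), where 1 read is worth 0.167 in CO.0 and 0.218 in CO.1. The macrophage lysozyme gene Lyz2 had 68.7, 58.3 and 68.95 in OO livers against 56.2 and 50.4 in CO livers, and Adgre1, which encodes F4/80, had 38.8, 44.5 and 36.1 in OO livers against 34.0 and 26.6 in CO livers. Interferon-stimulated genes had a median of 0.11, with 4 of 53 members higher and 0 lower at an unadjusted p under 0.05 (beside 3.29% and 2.60% of all genes). The antiviral GTPase Mx1 had 4.88, 3.87 and 6.37 in OO livers against 2.50 and 3.06 in CO livers.

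Lipid synthesis and storage lists had medians above the upper quartile of all genes, whose quartiles were -0.14 and 0.17, and glucose genes lay within these quartiles. Of 22 fatty acid and triglyceride synthesis genes, 5 were higher in OO without overlap and 1 lower (beside 10.6% and 9.45% of all genes), and Srebf1 alone had an unadjusted p under 0.05. The median was 0.23, and 0.22 against either CO library, but 0.08 without OO.2. The lipid droplet and lipolysis list of 17 had a median of 0.21, which was 0.09 without OO.2, with 3 members higher and 0 lower without overlap and 0 at an unadjusted p under 0.05. Acaca, acetyl-CoA carboxylase, stood at 103, 119.7 and 110.0 in OO livers against 84.7 and 89.1 in CO livers (adjusted p = 0.843). The gluconeogenesis list had a median of 0.04. Of 24 genes of glycolysis, glycogen and insulin signalling, 3 were higher and 2 lower at an unadjusted p under 0.05 (beside 3.29% and 2.60% of all genes), with a median of 0.09. Beside Ppp1r3c, the pseudokinase gene Trib3 stood at 7.41, 8.02 and 5.72 in OO livers against 4.50 and 2.84 in CO livers, and Gckr, the inhibitor of glucokinase, at 90.0, 96.8 and 131 in OO livers against 83.8 and 70.1 in CO livers. Pfkfb1, a bifunctional enzyme that sets fructose 2,6-bisphosphate, stood at 26.0, 22.95 and 31.9 in OO livers against 39.8 and 43.9 in CO livers. The glucose transporter Slc2a2 had 261, 232.5 and 362 in OO livers against 195 and 201 in CO livers. Cholesterol synthesis genes had a median of 0.18, with 0 of 25 members at that level, and the sign turned with the CO library, 0.52 against CO.0 and -0.12 against CO.1.

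Glutathione genes had a higher median in OO, and the median of xenobiotic genes turned its sign with the CO library. The glutathione and Nrf2 list had a median of 0.30, which was 0.18 against CO.0 and 0.42 against CO.1. Of its 38 members 34 were above 0, 8 were higher and 1 lower without overlap (beside 10.6% and 9.45% of all genes), and 4 were higher and 0 lower at an unadjusted p under 0.05 (beside 3.29% and 2.60%). Gstm1, a glutathione transferase, stood at 216, 373 and 504 in OO livers against 181 and 131 in CO livers, and Mgst3, a microsomal transferase, at 2.87, 6.91 and 8.50 in OO livers against 2.33 and 1.53 in CO livers. The OO libraries of these genes spread over more than double, with OO.0 the lowest and next to CO.0. Glutathione transferases have near-identical copies, so their division is uncertain. In the xenobiotic list 7 of 57 members were higher and 1 lower at that level (beside the same 3.29% and 2.60%), with a median of 0.14 that was -0.15 against CO.0 and 0.50 against CO.1. Ephx1, an epoxide hydrolase, had 334, 431 and 451 in OO livers against 304 and 241 in CO livers, while Cyp2c70, which makes muricholic acids, had 67.9, 64.7 and 67.7 in OO livers against 200.9 and 165.0 in CO livers.

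Protein synthesis and folding genes had medians below that of all genes. Endoplasmic reticulum stress genes had a median of -0.20, with 26 of 31 members below 0, which was -0.39 against CO.0 and 0.04 against CO.1. Xbp1 was the 1 member lower and Trib3 the 1 higher at an unadjusted p under 0.05 (beside 2.60% and 3.29% of all genes). Of 43 ribosomal protein genes, 40 were below 0 and 20 were lower and 1 higher without overlap (beside 9.45% and 10.6% of all genes), with a median of -0.13. That median was -0.17 against CO.0 and -0.08 against CO.1. Rplp2, of the ribosomal stalk, had 57.3, 50.3 and 48.2 in OO livers against 65.8 and 73.8 in CO livers (log2 difference -0.42, SE 0.15, adjusted p = 0.837). The level of this list was -0.14, -0.18 and -0.19 in OO.0, OO.1 and OO.2, while CO.0 and CO.1 stood at -0.01 and -0.07. Any part of Lars2, which took 12.92% of all values in OO.1, was not tested.

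Male-biased genes varied in level within OO. Moxd1, a monooxygenase gene on the male-biased list, stood at 75.01, 1.38 and 0.490 in OO livers against 185 and 161.5 in CO livers, and at 0 to 21.4 in the control-fed groups. Its log2 difference was -5.06 (SE 1.58, adjusted p = 0.837 by limma). The male-biased list had a median of -0.41, -0.86 against CO.0 and -0.05 against CO.1, with levels of 0.59, -0.04 and -1.08 in the OO libraries. The hepatocyte transcription factor Onecut1 (HNF6) had 15.2, 30.7 and 24.4 in OO livers against 66.5 and 51.0 in CO livers, and 17 of 19 factors on its list were below 0, with a median of -0.14. The level of that list was 0.02, 0.06 and 0.01 in OO libraries, against 0.14 in both CO libraries. DNA methylation and chromatin genes had a median of -0.01, with Mbd1, a reader of methylated CpG, at 39.3, 33.2 and 34.6 in OO livers against 50.5 and 50.2 in CO livers, and Sirt3, the mitochondrial deacetylase, at 65.8, 70.0 and 86.3 in OO livers against 64.3 and 49.1 in CO livers. Imprinted genes had 0 of 13 members at an unadjusted p under 0.05.

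**Figure D4:**
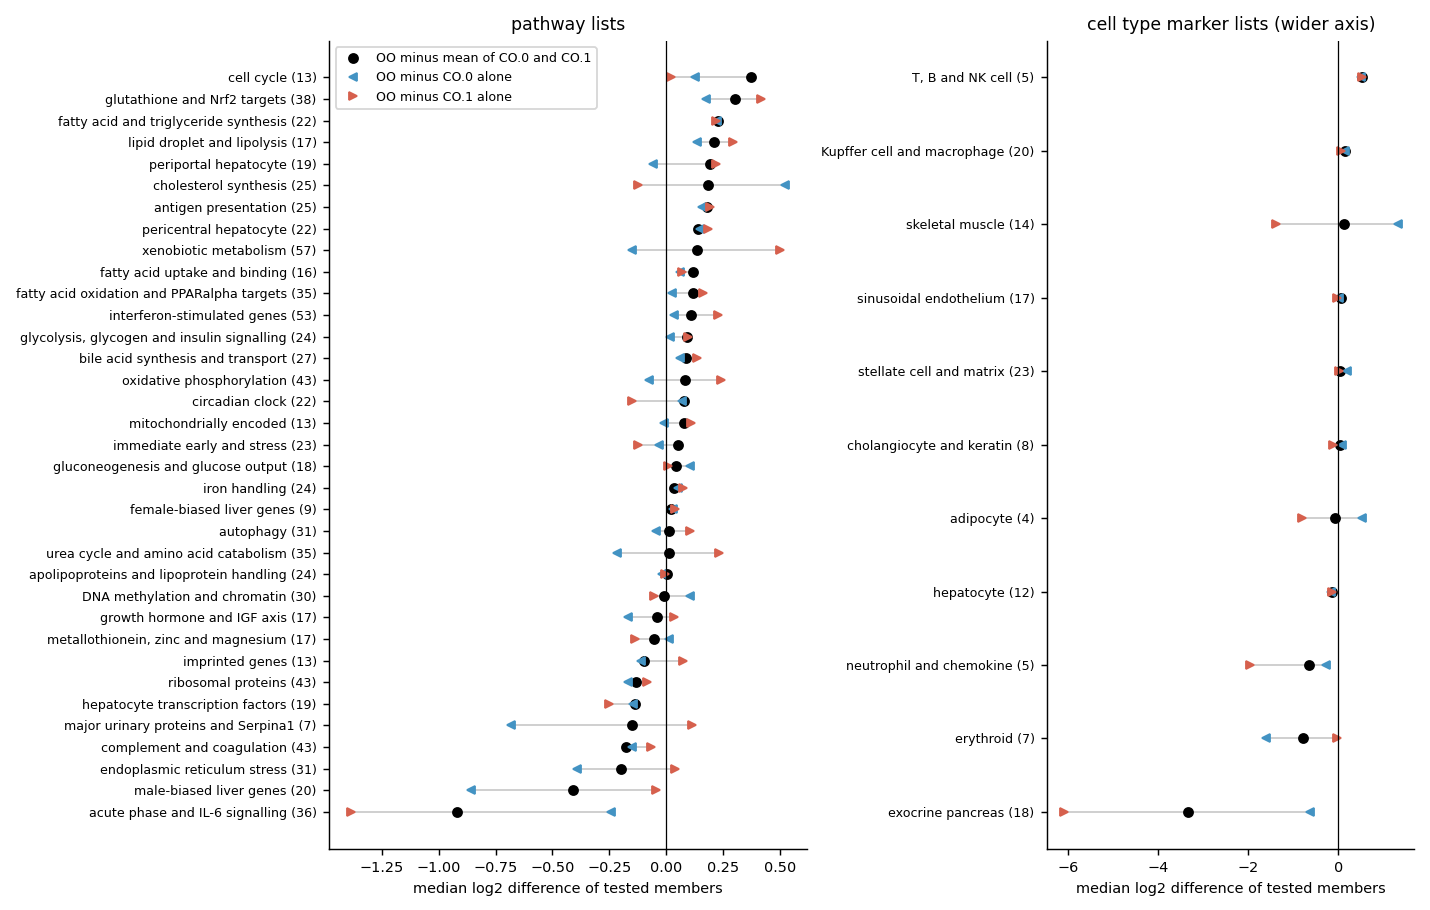
Median log2 difference of the tested members of each list, OO minus CO. Black points use both CO libraries, blue left-pointing triangles CO.0 alone and red right-pointing triangles CO.1 alone, numbers of tested members are in brackets, and the right panel has a wider axis. Acute phase genes (-0.92) and exocrine pancreas genes (-3.35) lie lowest, and the pairs of triangles show how far each median moved with the CO library.

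Of the cell type marker lists, exocrine pancreas had the lowest median, -3.35, which was -0.64 against CO.0 and -6.10 against CO.1, with 0 of 18 members at an unadjusted p under 0.05. Skeletal muscle genes had a median of 0.13, 1.32 against CO.0 and -1.39 against CO.1. Erythroid genes had a median of -0.78, -1.60 against CO.0 and -0.02 against CO.1. Sinusoidal endothelium, stellate cell and cholangiocyte lists had medians of 0.06, 0.05 and 0.03. None of the lists had a marker at 0 in all OO or all CO libraries among those in the table.

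Genes listed at 0 in a whole group were kept apart from the tests. All 3 OO libraries, and none of the other groups, listed Serpina1b, Serpina1d, Gm24105 and Gm8893 at 0. Serpina1 genes encode alpha-1 antitrypsin, the main protease inhibitor of plasma, and mice carry several near-identical copies of it. Serpina1b stood at 2679 and 2082 in CO livers and Serpina1d at 1340 and 876 in CO livers. The other copies were present in OO, with Serpina1a at 646, 565 and 604 in OO livers against 761 and 592 in CO livers, and Serpina1c at 1261, 1266 and 1338 in OO livers against 1530 and 1189 in CO livers. Serpina1e had 1787, 1345 and 347 in OO livers against 3020 and 1589 in CO livers. Summed over all 5 copies, the family stood at 3694, 3177 and 2289 in OO livers and 9331 and 6327 in CO livers, and summed over the 3 copies with values in every group at 3694, 3177 and 2289 in OO livers and 5311 and 3369 in CO livers. The longest open reading frames of the copies shared 91.5% to 96.7% of aligned bases over 10 pairs. An exact 0 in such genes can be a failed estimate, so no fold change is given. Gm8893 stood at 10.8 and 9.82 and Gm24105 at 92.3 and 56.5 in CO livers. The mitochondrial 16S rRNA mt-Rnr2 and the major urinary protein gene Mup17 were listed at 0 in every OO and CO library. In the control-fed groups mt-Rnr2 stood at 43310 to 45420 in OC and 43530 to 51010 in CC livers, and Mup17 at 191 to 1416 in OC and 107 to 754 in CC livers. The 12S rRNA mt-Rnr1 stood at 5014, 11990 and 7268 in OO livers and 6585 and 7040 in CO livers. How the zeros arose was not tested, and a difference in annotation or counting between the libraries cannot be told apart from the groups, for OO against CO and for the interaction. The same limit holds wherever OO or CO values are set beside OC and CC, since mt-Rnr2 and Mup17 were at 0 in OO and CO alone.

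**Figure D5:**
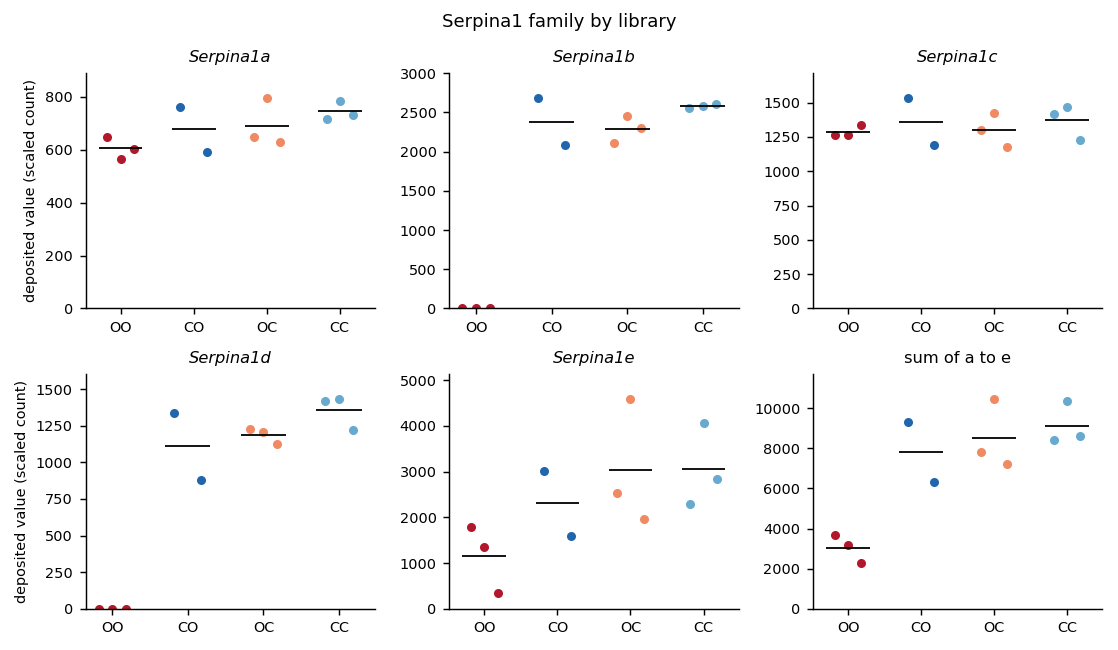
Serpina1 genes by library. The y axes give the deposited value (scaled count, from 0), the x axes the groups, points are libraries and bars are group means where a group has values above 0. Serpina1b and Serpina1d are listed at 0 in OO alone. The sum of the 5 genes counts these zeros and is 2289 to 3694 in OO against 6327 and 9331 in CO. Summed over Serpina1a, Serpina1c and Serpina1e (not drawn), CO stands at 5311 and 3369, which overlaps with OO.

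Whether the maternal diet difference was the same in both offspring diets was asked with the interaction, OO minus CO less OC minus CC. No gene passed an adjusted p under 0.05 by limma (0 of 12080, 0%), with 547 (4.53%) at an unadjusted p under 0.05, of which 278 (2.30%) were higher and 269 (2.23%) lower, 0 calls by edgeR (585 unadjusted) and by voom (529 unadjusted) and 2 by DESeq2. OC against CC likewise had 0 calls by limma (637 genes, 5.27%, unadjusted), by edgeR (665 unadjusted) and by DESeq2 (458 unadjusted). Gas1 had the smallest interaction p, with a log2 difference of 1.21 for OO minus CO and -0.11 for OC minus CC, and an interaction of 1.32 (SE 0.20, adjusted p = 0.420). Steap4 differed by -1.90 for OO minus CO and by 0.58 for OC minus CC, an interaction of -2.48 (adjusted p = 0.936 by limma and 0.00654 by DESeq2). P4ha2, a collagen prolyl hydroxylase subunit, had 3.74, 5.81 and 3.92 in OO livers against 8.83 and 6.99 in CO livers, but 6.34, 7.30 and 7.34 in OC livers against 4.76, 3.55 and 4.28 in CC livers. Its 2 differences ran in opposite directions, -0.77 and 0.68, with an interaction of -1.45 and an adjusted p = 0.936. Sfxn1, a mitochondrial serine transporter, had 93.0, 78.8 and 103.8 in OO livers against 73.2 and 64.6 in CO livers, and 99.9, 104.0 and 97.5 in OC livers against 129, 125 and 125 in CC livers. Zfp467, Manbal and Gpihbp1, which anchors lipoprotein lipase to capillaries, had interactions of 1.05, 1.24 and 0.68, and Wdr45b, Cldn14 and Xbp1 of -0.59, -1.12 and -0.97, all with an adjusted p = 0.936. OC and CC share no library with OO and CO, and an effect that misses the threshold in both is not shown to be equal.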

How the data were processed

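Liver RNA was extracted and made into TruSeq libraries, per the labels' protocols. Reads were aligned with Bowtie 1.2.3 to build mm8, per the submitters' processing notes. The counter, annotation, strand setting and scaling were not given in the sources used here. The authors deposited a signal, that is, counts over a per-library factor, which the values themselves show: 95.73% to 97.35% of non-zero values in a library were whole multiples of 1 read (tolerance 0.01). The table calls them CPM, but they sum to 929699 to 1099404 per library. Its 11 column names give the group, an index within it and pool and barcode codes. The 12 samples' titles hold none of these, so no library was matched to a sample.

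Limma 3.58.1 (R 4.3.3) fitted log2(value + 0.5) with an intensity trend, 1 mean per group over all 11 libraries (7 residual and 4.67 prior degrees of freedom), since CO has 2 libraries, with Benjamini-Hochberg adjustment over 12080 genes and a threshold of 0.05. Fold changes are on that scale and understate changes of low genes. Every gene reached a value of 1 in at least 3 libraries. The design assumed the deposited table to be CPM, and the log-scale test was kept. Alternatives were edgeR 4.0.16, DESeq2 1.42.0 and voom on recovered reads, other pseudocounts (0.1 and 2), filters and scalings, a robust variance, sample weights, only OO and CO, a block on the column index, and leaving out each library. The script was tested on simulated data.

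Named genes had to pass the threshold, average 5 or more in the higher group and show no overlap. Where fewer than 12 in a direction passed, the smallest unadjusted p filled the rest, without Gm and Rik symbols. The same rule with 5 per direction named interaction genes, and each of 46 lists gave up to 4 examples. Alpk1, Lars2, Saa1, Saa2, Fga, Fgb, Fgg, Gm8893, Gm24105, mt-Rnr1 and Serpina1c were named after their values were seen. Some genes that these rules take are counted but not reported here. The members and gene lists were chosen with earlier results of these data known. Symbols matched 11965 of 12086 identifiers. Coordinates are given for RefSeq promoters of GRCm38.p6 only, since that is not the alignment build. Intervals cover counting error only.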

Additional observations from a re-analysis of the deposited data

How the results depend on the processing

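The count of genes called in OO against CO was 0 and became 1 with a pseudocount of 0.1 (Gas1), 1 at an adjusted p under 0.1 (Gas1), 10 by DESeq2 (Steap4, Ppp1r3c, Tifa, Ptp4a1, Gas1 and 5 others) and 5 with the genes listed at 0 kept in the test, of which 4 are those genes. Leaving out each library gave 0 to 1 calls in OO against CO, 0 to 1 in the interaction and 0 to 2 in OC against CC. The single call without CO.0 was Alpk1, an alpha kinase with a value of 38.2 in CO.1 but 3.67 in CO.0, and the 2 calls in OC against CC came without CC.1. The interaction had 2 calls by DESeq2 and 4 with the genes listed at 0 kept. Other alternatives gave 0 calls: pseudocount 2, no filter, a minimum value of 5 (10232 genes), both scalings, edgeR, voom, robust variance, sample weights, OO and CO alone and, chosen after seeing the data, fits without CO.1 and OC.0 (most pancreas transcripts) and without CO.1 and OC.1 (high acute phase transcripts). No named gene changed direction under any of these. Of 1288 list medians under alternatives, 74 moved by more than their spread, 15 of them without CO.0 and 11 without CO.1. DESeq2 gave no adjusted p for 506 genes, which stay uncalled. A fit with 1 CO library takes its spread from the other groups. The labels give no replicate numbers, but the column names number the libraries 0, 1 or 2 within each group. With this index as a replicate block, chosen after seeing the data, limma called 0 genes in OO against CO (580 unadjusted), 0 in the interaction (451 unadjusted) and 0 in OC against CC (584 unadjusted). Deviations from the group means, correlated across genes, gave r of -0.31 to 0.21 over 15 pairs of libraries with the same index, 5 of them above 0.1. Pairs with a different index gave -0.34 to 0.31 over 30 pairs, 8 of them above 0.1. Of 11 libraries, 2 correlated best with a library of their own index. Deviations within a group of 2 or 3 libraries are tied to each other, so these r cannot decide whether the index marks a pairing. Depth limits the lowest genes, since 3 reads amount to 0.1 in OO.0 and 0.83 in OO.1.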

Other observations

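Among other lists, T, B and NK cell genes had a median of 0.52 over 5 tested members (0.50 against CO.0 and 0.52 against CO.1), with 4 above 0 and 0 at an unadjusted p under 0.05. Cell cycle genes had a median of 0.37 over 13 members, but 0.13 against CO.0 and 0.02 against CO.1, with 0 at that level. Oxidative phosphorylation genes had a median of 0.08, with 37 of 43 members above 0 and 1, the complex I subunit gene Ndufb8, higher at an unadjusted p under 0.05 (beside 3.29% of all genes), and the sign turned between CO.0 (-0.07) and CO.1 (0.24). Periportal hepatocyte genes had a median of 0.19 in OO minus CO, beside -0.33 in OC minus CC. The median for OO minus CO turned its sign with the CO library, -0.06 against CO.0 and 0.22 against CO.1. Of the 19 members, 6 had a higher interaction at an unadjusted p under 0.05 (beside 2.30% of all genes, with 0 of the list past the adjusted threshold by limma). Etnppl, an ethanolamine phosphate lyase among them, stood at 62.1, 71.9 and 75 in OO livers against 63.0 and 13.8 in CO livers, and at 166 to 365 in OC and 252 to 356 in CC livers. Urea cycle and amino acid genes had a median of 0.01, with 0 of 35 at that level.

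Of iron genes, Hamp2, a hepcidin copy, stood at 2.54, 4.98 and 14.7 in OO livers against 2.33 and 0.655 in CO livers, in contrast to the lower values of Steap4 and Slc39a14. The Hamp2 value of CO.1 amounts to 3 reads, and OO.0 at 2.54 lay next to CO.0 at 2.33. Fabp5, a fatty acid binding protein of macrophages and skin, stood at 18.5, 11.9 and 4.90 in OO livers against 24.2 and 43.9 in CO livers, with 2.59 to 10.8 in the control-fed groups. Abcc3, a basolateral exporter of bile acid conjugates, covered 98.5, 169 and 310 in OO livers against 113 and 84.5 in CO livers.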
